A study of Mus musculus with 24 samples.

Results

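Adult hearts of wild-type mice whose mothers had received the thyroid hormone T3 (3,3',5-triiodothyronine) during pregnancy were compared with hearts of wild-type mice from untreated mothers, 12 of the 24 arrays of the series. The T3-exposed group was 6 wild-type males whose mothers drank 0.5 mg/L T3 with 0.01% bovine serum albumin between embryonic days 12.5 and 18.5, and the untreated group was 6 wild-type males whose mothers drank the albumin solution alone. These days are those of the labels, and the methods give an earlier last day, described as the day before birth. The paper reports raised serum T3 in the embryos of treated mothers. After birth the offspring received no T3, so the comparison asks what is still different in the heart months after the exposure ended. All mice of both groups were C57/BL6NCr, 4 to 5 months old, kept at 22 °C and born to a wild-type mother mated with a male heterozygous for the TRα1R384C mutation. The other 12 arrays came from TRα1+m mice, heterozygous for this Thra mutation, which lowers the affinity of the receptor TRα1 for T3, and were used for the estimate of the spread and as a comparison. RNA of each whole heart was measured on a Clariom S mouse array, and values are log2 expression values, so that a difference of 1 is a 2-fold difference. Control probe sets were left out, the probe set with the highest mean was kept for each symbol, and the 19801 of 22139 genes or unnamed probe sets whose mean exceeded 4 in at least 1 group were tested with limma, with Benjamini-Hochberg adjustment over all of them. Litters and dams are not given, so litter and treatment cannot be told apart, and p-values measure the spread between these mice.

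T3 acts through nuclear receptors, of which TRα1, encoded by Thra, is the main form in heart muscle. In the adult heart the bound receptor raises the fast myosin heavy chain, the calcium pump and pacemaker channels and lowers the slow myosin heavy chain. Deiodinases set the local hormone level, with Dio2 making T3 and Dio3 degrading it, and Dio3 is high in fetal tissue and placenta. The hormone surge around birth is known to accompany the switch of the heart to its adult metabolism and contractile proteins.

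The arrays differed within the T3-exposed group. Over the 12 wild-type arrays, the first principal component held 21.4% of the variance and set T3-exposed mice 14 and 15 apart, at 51.6 and 51.8, from the other 10 mice at -21.2 to 1.4. List counts, and changes at an unadjusted p under 0.05 that move by more than 1.5 times without these 2 mice, are given with and without them, except for Map1lc3b. Heart muscle genes were at a high level in all mice, with the mean of 14 cardiomyocyte markers at 17.86 to 18.09 in T3-exposed and 17.73 to 17.98 in untreated mice. Between 18505 and 18845 genes exceeded 4 in 5 T3-exposed mice and 19229 did in mouse 46, against 18930 to 19246 in untreated mice. Label numbers ran up to 17 in 3 T3-exposed mice and 1 untreated mouse and from 37 in the rest. T3-exposed mice 14 and 15 are in the lower range, so leaving out these mice and leaving out that range overlap. What these numbers stand for is not given, but 580 genes differed between the 2 ranges over all 24 arrays with group means removed (adjusted p under 0.05, limma), so values within the numbers above 30 (3 T3-exposed and 5 untreated mice) are given for the main results. In RNA of whole hearts, fewer cells of a type and less RNA per cell cannot be told apart.

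Promoter sequences are shown for 5 genes whose groups did not overlap, as was so for 0.535% of all genes on the higher and 0.192% on the lower side, to set promoters that hold the hexamer recognised by thyroid hormone receptors beside promoters that do not. Atg2a and Srsf9 had higher values after maternal T3 and Egfl6 lower ones, and Mrps15 and Psma3 stand for the mitochondrial ribosome and the proteasome. Each is the stretch of 250 bases before to 50 bases after the annotated start, 5′ to 3′ on the strand of the gene, from RefSeq (GRCm38.p6). Capitals mark the hexamer AGGTCA, or TGACCT where it lies on the other strand.
Atg2a, chr19:6241418-6241717, plus strand: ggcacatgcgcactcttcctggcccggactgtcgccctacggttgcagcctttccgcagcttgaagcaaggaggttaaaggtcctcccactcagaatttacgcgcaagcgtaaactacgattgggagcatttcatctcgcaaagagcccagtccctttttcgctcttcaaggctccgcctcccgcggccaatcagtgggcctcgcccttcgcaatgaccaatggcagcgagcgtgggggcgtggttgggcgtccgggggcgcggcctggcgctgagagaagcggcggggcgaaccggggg
Srsf9, chr5:115326927-115327226, plus strand: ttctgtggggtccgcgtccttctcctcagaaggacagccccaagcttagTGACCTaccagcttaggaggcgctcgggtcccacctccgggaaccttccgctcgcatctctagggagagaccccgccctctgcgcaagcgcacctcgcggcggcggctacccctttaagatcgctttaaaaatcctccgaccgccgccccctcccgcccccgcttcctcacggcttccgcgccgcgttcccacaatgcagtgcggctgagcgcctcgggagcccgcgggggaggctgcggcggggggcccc
Egfl6, chrX:166585667-166585966, minus strand: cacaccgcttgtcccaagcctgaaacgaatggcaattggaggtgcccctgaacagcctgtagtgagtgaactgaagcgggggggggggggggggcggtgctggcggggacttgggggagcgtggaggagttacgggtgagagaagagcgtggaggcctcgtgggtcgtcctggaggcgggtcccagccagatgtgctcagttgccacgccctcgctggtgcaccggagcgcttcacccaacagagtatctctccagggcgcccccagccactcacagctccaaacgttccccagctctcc
Mrps15, chr4:126046678-126046977, plus strand: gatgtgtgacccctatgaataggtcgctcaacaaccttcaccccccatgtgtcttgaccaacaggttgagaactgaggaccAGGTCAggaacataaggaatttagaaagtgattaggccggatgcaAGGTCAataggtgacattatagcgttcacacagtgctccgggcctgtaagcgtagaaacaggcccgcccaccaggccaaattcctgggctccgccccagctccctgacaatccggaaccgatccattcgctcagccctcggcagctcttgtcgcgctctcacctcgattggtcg
Psma3, chr12:70974373-70974672, plus strand: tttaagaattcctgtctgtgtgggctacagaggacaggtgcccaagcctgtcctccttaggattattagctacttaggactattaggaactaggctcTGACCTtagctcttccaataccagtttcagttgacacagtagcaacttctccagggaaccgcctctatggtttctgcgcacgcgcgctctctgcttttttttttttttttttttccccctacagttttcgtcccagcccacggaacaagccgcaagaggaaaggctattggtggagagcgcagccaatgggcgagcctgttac
The hexamer was found 2 times on the gene's strand in the Mrps15 window and 1 time on the other strand in those of Srsf9 and Psma3, and the windows of Atg2a and Egfl6 did not hold these letters. Searched on both strands in the first listed window of each gene, it was in 4335 of the 27025 genes of the table and in 13.5% of the 14051 tested genes that could be matched. It was in 115 of 905 matched genes (12.7%) with higher values after maternal T3 at an unadjusted p under 0.05, and in 96 of 654 (14.7%) with lower values, where 6.03% and 4.95% of all genes tested met that threshold. A match is a description of the letters and not of a bound site.

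Atg2a, on chromosome 19, was the 1 gene that passed the test. It encodes a lipid transfer protein that feeds the growing autophagosome membrane. Its log2 values were 7.80, 8.22, 8.23, 7.97, 7.63 and 7.82 in T3-exposed mice 13, 14, 15, 46, 47 and 48, against 6.35, 7.09, 6.55, 6.58, 7.02 and 6.48 in untreated mice 2, 37, 39, 56, 57 and 58. The groups did not overlap, and the lowest T3-exposed heart lay above the highest untreated one by more than the SD of either group. The means were 7.94 ± 0.24 in T3-exposed and 6.68 ± 0.30 in untreated mice (SD, n = 6 each), a log2 change of 1.27 (standard error 0.19, adjusted p = 0.00895, limma) or 2.4-fold. The two-sided exact permutation p was 0.00216, the smallest that the labellings of 6 against 6 mice can give, which every gene without overlap reaches (0.535% of all genes on the higher and 0.192% on the lower side). Atg2a was chosen for its p over all genes, so this p adds no evidence of its own. Among label numbers above 30 the change was 1.06, with the T3-exposed mouse higher in 15 of 15 pairs, where the groups did not overlap for 2.89% of all genes on the higher side and 2.14% on the lower side (exact permutation p = 0.0179, the smallest that 56 labellings can give). Without T3-exposed mice 14 and 15 the change was 1.13 (limma, adjusted p = 0.175), and without untreated mouse 2 it was 1.20 (limma, adjusted p = 0.0517).

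**Figure D1:**
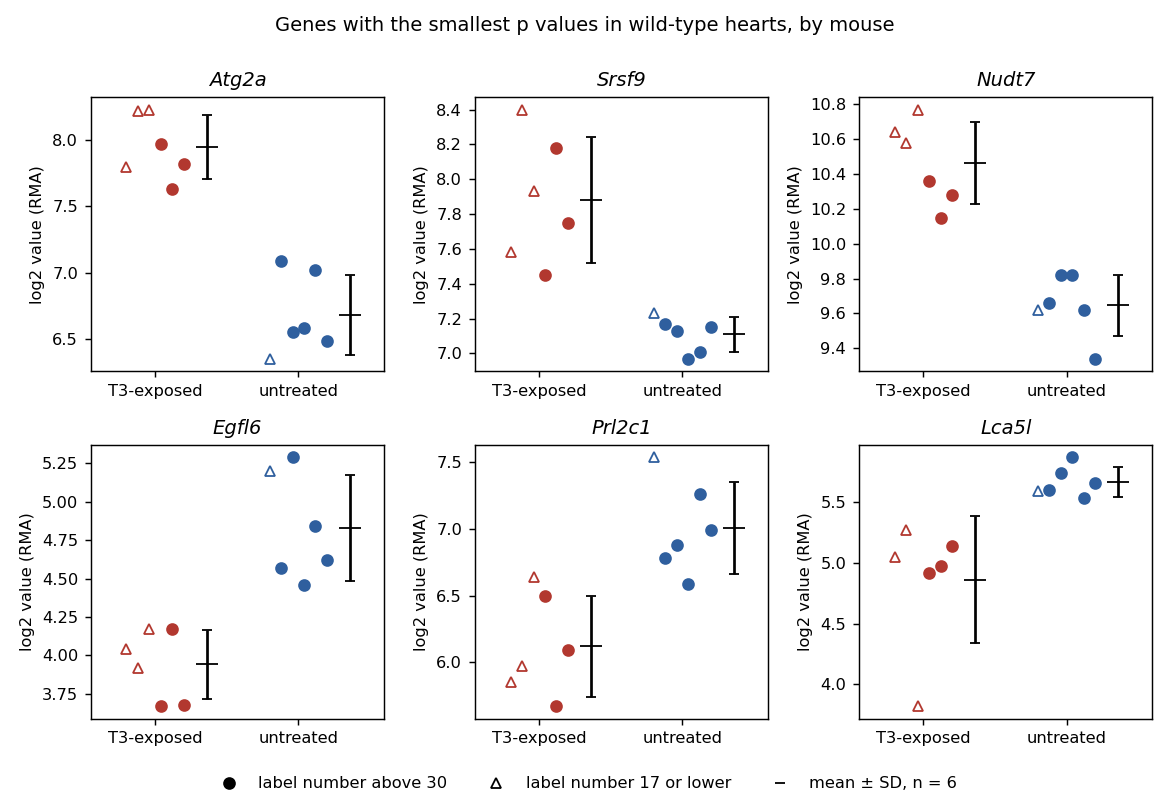
Log2 values of 6 genes in each wild-type heart, T3-exposed mice left and untreated mice right, with triangles for label numbers up to 17 and the black bar for the mean ± SD (n = 6). Atg2a, Srsf9 and Nudt7 were higher in every T3-exposed mouse than in any untreated mouse, Egfl6 and Lca5l lower, and Prl2c1 overlapped in 1 of 36 pairs.

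Over all genes, 1 of 19801 passed at an adjusted p under 0.05 (0.00505%), and 0 were lower after maternal T3. At an unadjusted p under 0.05, 1194 genes were higher (6.03%) and 980 lower (4.95%), of which 392 higher and 197 lower differed by at least 1.5-fold. The groups did not overlap for 106 genes that were higher (0.535%) and 38 that were lower (0.192%). The median change was -0.02 with a median standard error of 0.20. Without T3-exposed mice 14 and 15, 0 genes passed, and 627 were higher (3.17%) and 737 lower (3.72%) at an unadjusted p under 0.05. The share of the squared distances among the 12 arrays that lay between the groups was 13.5% (one-sided exact permutation p = 0.00649), and 13.3% without mice 14 and 15 (exact permutation p = 0.0333).

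The 12 genes with the smallest p among those with higher values included, after Atg2a, the splicing factor Srsf9, the U7 small nuclear ribonucleoprotein gene Lsm10, the mitochondrial iron importer Slc25a28, the peroxisomal coenzyme A diphosphatase Nudt7 and the cytokinesis regulator Prc1. None of the other 11 passed over all genes, with log2 changes of 0.66 to 1.08 and adjusted p from 0.267 to 0.322 (limma). Srsf9 was at 7.58, 8.40, 7.93, 7.45, 8.18 and 7.75 in T3-exposed mice, against 7.23, 7.17, 7.13, 6.97, 7.01 and 7.15 in untreated mice, in the order of label numbers given for Atg2a. Nudt7 was at 10.64, 10.58, 10.77, 10.36, 10.15 and 10.28 in T3-exposed mice, against 9.62, 9.66, 9.82, 9.82, 9.62 and 9.34 in untreated mice. Neither gene overlapped between the groups, and the change was 0.77 (standard error 0.17) for Srsf9 and 0.82 (standard error 0.19) for Nudt7. Lsm10 had a change of 0.77, with 7.82 to 8.46 in T3-exposed and 6.63 to 7.69 in untreated mice, and Prc1 one of 0.75, with 4.13 to 5.47 in T3-exposed and 3.88 to 4.25 in untreated mice. The remaining genes were Prorp (0.95), the nuclease of mitochondrial RNase P, the odorant receptor gene Olfr828 (1.08), the phosphatidylserine lipase Abhd16a (0.66), the scaffold Slc9a3r1 (0.77), Gpr137 (0.75) and the small GTPase Rab34 (0.80). Groups did not overlap for 7 of the 12, against 0.535% of all genes on the higher side. The genes were chosen by p from these same values, so this count adds no evidence of its own. Without T3-exposed mice 14 and 15 the changes of Prc1 and Olfr828 were 0.98 and 1.21, while those of Srsf9 and Prorp were 0.63 and 0.71. In that setting the adjusted p of Prc1 was 0.0618 and that of Atg2a 0.175 (limma). The untreated mean of Prc1, 4.09, was close to the filter level of 4.

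Among the 12 genes with the smallest p on the lower side, the secreted EGF-repeat protein gene Egfl6 came first. Its log2 values were 4.04, 3.92, 4.17, 3.67, 4.17 and 3.68 in T3-exposed mice, against 5.20, 4.57, 5.29, 4.46, 4.84 and 4.62 in untreated mice, a change of -0.89 (standard error 0.18, adjusted p = 0.238, limma). All T3-exposed values lay below all untreated ones, although the T3-exposed mean of 3.94 is below the level of 4 used as the filter. Lca5l, a relative of the cilium protein lebercilin, was at 5.05, 5.27, 3.82, 4.92, 4.97 and 5.14 in T3-exposed mice, against 5.59, 5.60, 5.74, 5.87, 5.53 and 5.66 in untreated mice, a change of -0.80. Its groups did not overlap either, and mouse 15 lay far below the other T3-exposed mice. The prolactin family gene Prl2c1 had 5.67 to 6.64 in T3-exposed and 6.59 to 7.54 in untreated mice (-0.89), and the actin regulator Cracd 8.83 to 9.91 in T3-exposed and 9.90 to 10.45 in untreated mice (-0.72). Fer1l4, of the ferlin-like family, had a change of -0.80, the secretoglobin Scgb2b24 -0.80, Tmem255a -0.87, the embryonic stem cell gene Dppa2 -0.84, the aggrecanase Adamts4 -0.81, the phosphatase Cpped1 -0.66, the neuronal membrane protein Slitrk4 -0.68 and the hair follicle keratin Krt27 -0.78. None of the 12 passed over all genes (adjusted p from 0.238 to 0.322, limma). Group means were above 7 in both groups for Cracd, Cpped1 and Fer1l4, and the T3-exposed means of the other 9 were 3.88 to 6.12.

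Lower values were more frequent among genes at a low level. Over all genes, 6.03% were higher and 4.95% lower at an unadjusted p under 0.05, and 3.17% and 3.72% without T3-exposed mice 14 and 15. Of 7265 genes with a mean between 4 and 6, 136 were higher and 492 lower at an unadjusted p under 0.05, with a median change of -0.07, and 156 were higher and 454 lower without T3-exposed mice 14 and 15. Between 8 and 10 it was 313 higher and 107 lower of 3440 genes, with a median of 0.05, and 149 higher and 54 lower without these mice. The 1018 odorant and vomeronasal receptor genes tested, which a heart hardly uses, had a median level of 4.50. Among them 30 were higher (2.95%) and 55 lower (5.4%), against 36 (3.54%) and 57 (5.6%) without these mice. With all mice their share of lower values was near that of all genes, and their share of higher values was below it. Of 50 hair keratin and keratin-associated protein genes 0 were higher and 8 lower, but 2 were higher and 2 lower without mice 14 and 15. Among the 8 lower, Krtap3-2 and Krtap3-3 had the same means and SD and were counted separately. The number of genes above 4 in a heart moved with the groups as well, and its part in these counts was not tested.

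Genes that carry or regulate thyroid hormone action included no gene past the limma test. Of 20 such genes tested, 1 was higher and 0 lower at an unadjusted p under 0.05, against 6.03% and 4.95% of all genes. Their median change was -0.10, and it turned to 0.01 without T3-exposed mice 14 and 15 and to 0.02 among label numbers above 30. The higher one was Hdac3, the deacetylase of the receptor's corepressor complex (0.32, adjusted p = 0.452, limma), at 0.19 and an unadjusted p above 0.05 without these mice. Thra had 11.83, 11.70, 11.70, 11.69, 11.58 and 11.61 in T3-exposed mice, against 11.89, 11.47, 12.04, 11.71, 11.70 and 11.70 in untreated mice, and its change was -0.07 (standard error 0.13). Thrb, the other receptor gene, had 8.78 to 9.74 in T3-exposed and 9.62 to 10.18 in untreated mice, a change of -0.38 (standard error 0.19, adjusted p = 0.461), which was -0.11 among label numbers above 30 and -0.16 without mice 14 and 15. Thra overlapped fully between the groups, and the lowest Thrb value was that of mouse 15. Dio2 averaged 5.91 ± 0.38 in T3-exposed and 5.69 ± 0.55 in untreated mice (SD, n = 6 each), and Dio3, at 3.03 ± 0.24 in T3-exposed and 2.89 ± 0.38 in untreated mice, lay below the filter and was not tested.

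Of 30 cardiac target genes of the hormone, 3 were higher and 3 lower at an unadjusted p under 0.05 (median change 0.10). The shares of all genes were 6.03% higher and 4.95% lower, and 0 of the 30 passed over all genes in limma. Without mice 14 and 15, 3 were higher and 1 lower (median change 0.05), against 3.17% and 3.72% of all genes. Kcna5, the channel of the ultrarapid delayed rectifier current, had 6.58, 6.84, 6.12, 6.67, 6.37 and 6.91 in T3-exposed mice, against 7.43, 7.0, 7.85, 7.0, 6.85 and 7.58 in untreated mice. In 35 of 36 pairs the T3-exposed mouse was lower, and the change was -0.70 (standard error 0.21, adjusted p = 0.322). Acta1, the skeletal actin of the fetal heart, had 14.41, 14.27, 14.94, 14.50, 15.54 and 15.01 in T3-exposed mice, against 14.36, 14.26, 13.75, 14.03, 13.66 and 13.97 in untreated mice. Here 35 of 36 pairs were higher in the T3-exposed mouse, and the change of 0.77 (standard error 0.27, adjusted p = 0.36) was 1.08 among label numbers above 30. Hcn4, the main pacemaker channel, had 8.15 to 8.94 in T3-exposed and 8.63 to 9.28 in untreated mice, a change of -0.41 (standard error 0.19, adjusted p = 0.449), while Hcn2 had one of 0.29 (standard error 0.18). The myosin heavy chains differed little, with Myh7 at 16.51 ± 0.31 in T3-exposed and 16.35 ± 0.39 in untreated mice and Myh6 at 19.66 ± 0.05 in T3-exposed and 19.75 ± 0.07 in untreated mice (SD, n = 6 each). Atp2a2, the calcium pump, at 19.92 ± 0.01 in T3-exposed and 19.93 ± 0.00 in untreated mice, its inhibitor Pln (change -0.02) and Myh6 stood among 22 genes at 19 or more, at the upper end of the scale, where higher values can hardly be measured. Ryr2, the calcium release channel, had a change of -0.08 (standard error 0.12).

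**Figure D2:**
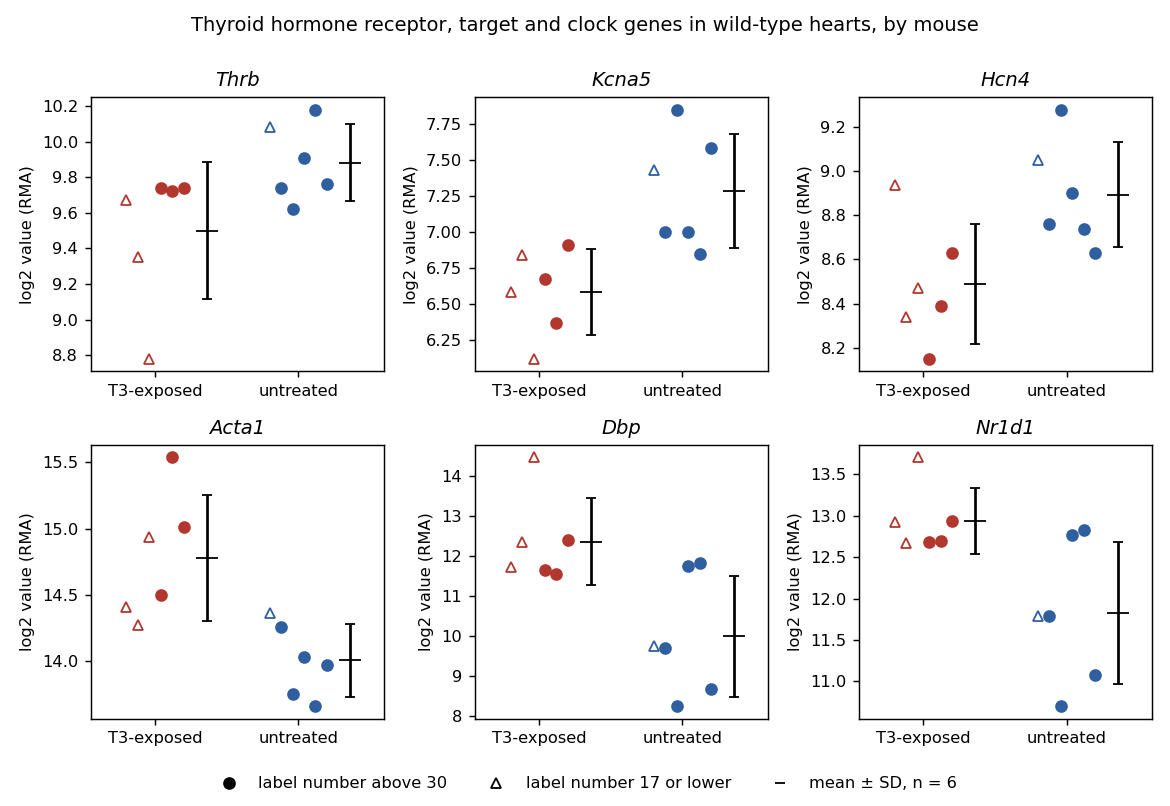
Log2 values of Thrb, the target genes Kcna5, Hcn4 and Acta1 and the clock genes Dbp and Nr1d1 in each wild-type heart, T3-exposed mice left and untreated mice right, with triangles for label numbers up to 17 and the black bar for the mean ± SD (n = 6). Kcna5 overlapped in 1 of 36 pairs and Acta1 in 1 of 36, and the untreated mice fall into a lower and a higher set for Dbp and Nr1d1.

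Ion channel genes included none past the limma test over all genes. Of 40 potassium channel genes tested, 1 was higher and 3 lower at an unadjusted p under 0.05, against 6.03% and 4.95% of all genes, with Kcng1, a silent subunit, at -0.47 beside Kcna5. The counts were also 1 and 3 without T3-exposed mice 14 and 15. Kcne1 had a change of -0.16 (standard error 0.26), Kcnh2, the rapid delayed rectifier, of 0.29 (standard error 0.17), and Kcnd2, of the transient outward current, of 0.11 (standard error 0.18). Of 21 pacemaker, sodium and calcium channel genes, 1 was higher (4.76%) and 3 lower (14.3%), a share of lower values above that of all genes. Without these mice 1 was higher and 1 lower (4.76% each), against 3.17% and 3.72% of all genes. Cacna2d1, the auxiliary subunit of the L-type calcium channel, had 11.15 to 11.89 in T3-exposed and 11.59 to 12.21 in untreated mice, a change of -0.53 (standard error 0.18), and the cation channel Trpm4 had one of 0.38. Among 29 calcium handling genes 4 were higher and 0 lower, among them the calmodulin genes Calm2 (0.52, and 0.26 without mice 14 and 15) and Calm3 (0.31), but 1 was higher without these mice. Of 22 autonomic receptor and signalling genes 2 were higher and 1 lower, with the α1-adrenergic receptor gene Adra1b at 0.30 (9.18 ± 0.13 in T3-exposed and 8.88 ± 0.14 in untreated mice, SD, n = 6 each) and the G protein gene Gnaq at -0.45. Without mice 14 and 15, 1 was higher and 0 lower, Gnaq was at -0.26, and the median change of this list, -0.11, turned to 0.06.

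Autophagy genes had mostly positive changes. Of 41 tested, 28 were positive, 5 were higher and 0 lower at an unadjusted p under 0.05, and 1 passed over all genes, where 47.7% of all genes were positive and 6.03% higher. Without T3-exposed mice 14 and 15, 30 were positive and 3 higher. The groups did not overlap for 3 of them, Atg2a, Bnip3 and Map1lc3b, against 0.535% of all genes on the higher side. Map1lc3b was chosen, like Ulk1, after its values were seen. Bnip3, a mitophagy receptor, had 11.77, 12.03, 12.51, 11.72, 11.63 and 11.55 in T3-exposed mice, against 11.51, 11.02, 11.34, 11.43, 11.04 and 11.49 in untreated mice (0.56, adjusted p = 0.348, limma), a change of 0.36 without mice 14 and 15. Map1lc3b, which is coupled to the autophagosome membrane, had 12.29, 13.25, 13.36, 12.34, 12.35 and 12.59 in T3-exposed mice, against 12.15, 12.28, 12.27, 12.05, 11.79 and 12.17 in untreated mice. The change of Map1lc3b was 0.58, and 0.31 among label numbers above 30, which do not include mice 14 and 15. In both genes mice 14 and 15 were the highest, and the other T3-exposed mice lay close above the untreated range. The initiating kinase gene Ulk1 had a change of 0.41 and overlapped, with mouse 14 lowest among the T3-exposed mice at 9.12. The mean of the 41 genes was 10.12 to 10.22 in T3-exposed and 10.02 to 10.12 in untreated mice, and the median change was 0.10, against 0.08 without mice 14 and 15. Among 26 lysosome genes 3 were higher and 1 lower, with the cathepsin Ctsl at 0.68 and no overlap between the groups. With mice 14 and 15 left out, 1 was higher and 0 lower, and Ctsl was at 0.43.

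Protein synthesis, respiration and protein breakdown had positive list medians after maternal T3, which were smaller without mice 14 and 15. The mean of 64 cytosolic ribosomal protein genes was 11.78, 12.83, 12.84, 11.87, 11.67 and 11.89 in T3-exposed mice 13, 14, 15, 46, 47 and 48, against 11.64, 11.75, 11.70, 11.65, 11.52 and 11.50 in untreated mice. Mice 14 and 15 stood far above all others, while mouse 47 lay within the untreated range. In the mitochondrial ribosome, which makes the proteins encoded by mitochondrial DNA, the mean of 75 genes was 9.64, 10.40, 10.24, 9.63, 9.50 and 9.66 in T3-exposed mice, against 9.45, 9.51, 9.37, 9.39, 9.35 and 9.34 in untreated mice. The 46 proteasome genes averaged 10.71, 11.18, 11.12, 10.78, 10.65 and 10.78 in T3-exposed mice, against 10.60, 10.62, 10.50, 10.49, 10.55 and 10.56 in untreated mice. For the proteasome every T3-exposed mouse lay above every untreated mouse, and for the mitochondrial ribosome mouse 47, the lowest of the T3-exposed mice, lay just below untreated mouse 37. At an unadjusted p under 0.05, 28 of 64 cytosolic ribosomal genes were higher, 35 of 75 mitochondrial ribosomal genes, 17 of 44 genes of respiratory complex I, 12 of 49 of complexes II to V and 17 of 46 of the proteasome, with 0 lower in any of these lists and 0 past the limma test over all genes. Of all genes, 6.03% were higher and 4.95% lower at that threshold with all mice. Without mice 14 and 15 the counts of higher list members were 1, 2, 2, 0 and 2, against 3.17% of all genes. With all 5 mice left out that stood apart over the 24 arrays, which keeps the same 10 wild-type mice but changes the estimate of the spread, they were 16, 13, 9, 6 and 10, against 4.94% of all genes. In both fits 2 cytosolic ribosomal genes were lower. The median changes were 0.56, 0.46, 0.49, 0.39 and 0.37 in the same order, against 0.22, 0.21, 0.15, 0.17 and 0.20 in both fits without mice 14 and 15. Over all genes tested the median was -0.02 with these mice and 0.01 without them. Among single genes, Psma3, a core proteasome subunit, had 10.70, 12.20, 11.80, 10.88, 10.60 and 10.82 in T3-exposed mice, against 10.01, 10.49, 10.22, 10.20, 10.13 and 10.11 in untreated mice (0.97, 0.55 without mice 14 and 15). Mrps15 (0.76), the ribosomal stalk gene Rplp0 (0.76) and the proteasome ATPase Psmc1 (0.55) also had no overlap between the groups, and Cox6a1, of cytochrome oxidase, had a change of 1.01, which was 0.54 without mice 14 and 15.

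**Figure D3:**
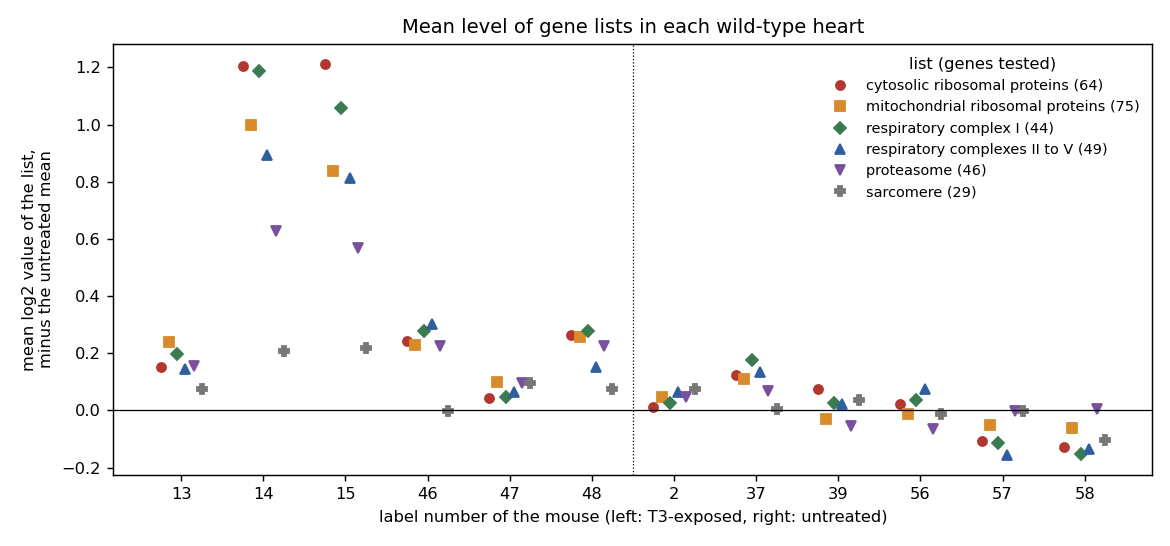
Mean log2 value of 6 gene lists in each wild-type heart, minus the mean of the 6 untreated mice, with the T3-exposed mice left of the dotted line and the untreated mice right of it. Mice 14 and 15 are the highest for each of these lists, least so for the sarcomere, and the other T3-exposed mice lie at or above the untreated mean.

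Metabolic and contractile genes had smaller median changes. Of 47 genes of glucose metabolism and the citrate cycle, 6 were higher and 0 lower at an unadjusted p under 0.05 (median change 0.11), among them Pdhx (0.39), of the pyruvate dehydrogenase complex, and Sdhd (0.45, and 0.26 without mice 14 and 15), of succinate dehydrogenase. Over all genes 6.03% were higher, and without these mice 3 of the 47 were higher, against 3.17% of all genes. Of 34 fatty acid genes 3 were higher and 1 lower, with the fatty acid binding protein gene Fabp4 at 0.71 and Ppara, the nuclear receptor of fatty acid oxidation, at -0.75. Of these genes 1 was higher and 0 lower without mice 14 and 15, with Fabp4 at 0.32 and Ppara at -0.42. Ppara had 11.77, 10.60, 10.36, 11.48, 11.15 and 11.57 in T3-exposed mice, against 11.93, 11.88, 11.90, 11.90, 11.74 and 12.11 in untreated mice. The lowest values were those of mice 14 and 15, and only mouse 13 reached the untreated range. Of 29 sarcomere genes 3 were higher and 0 lower, with the Z-disc genes Csrp3 (0.55) and Tcap (1.02), and 0 were higher without mice 14 and 15, with Csrp3 at 0.22 and Tcap at 0.60. Of 25 fetal and hypertrophy genes 4 were higher and 1 lower (median change 0.16), and 1 was higher and 0 lower without mice 14 and 15.

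Extracellular matrix and vessel wall genes had positive medians with and without these mice. Of 41 matrix genes 7 were higher and 0 lower at an unadjusted p under 0.05, and 5 were higher without mice 14 and 15, against 6.03% and 3.17% of all genes, with median changes of 0.08 and 0.15. The laminin gene Lamc1 (0.38), Col15a1 (0.49) and Col1a1 (0.63) were among them, with Col1a1 at 9.44 to 10.89 in T3-exposed and 9.46 to 9.69 in untreated mice. Of 14 smooth muscle and pericyte markers 3 were higher and 0 lower (median change 0.33), and 2 were higher without the 2 mice (median change 0.25). In this list 10 changes were positive and 4 negative, and 13 were positive without the 2 mice. The negative ones with all mice were Rgs5 (-0.15), Pdgfrb (-0.14), Abcc9 (-0.22) and Mcam (-0.05). Vtn, vitronectin, a marker of pericytes, had 11.35, 11.55, 11.88, 11.72, 11.35 and 11.43 in T3-exposed mice, against 11.08, 10.98, 10.67, 10.99, 11.23 and 11.21 in untreated mice, and did not overlap (0.52, adjusted p = 0.322, limma). Notch3, the Notch receptor of mural cells, had a change of 0.54, with 7.51 to 8.43 in T3-exposed and 7.38 to 7.81 in untreated mice. Fibroblast markers were positive in 11 of 11 genes with a median change of 0.19, and 1 was higher at an unadjusted p under 0.05. With mice 14 and 15 left out, 9 of 11 were positive with a median of 0.27 and 1 was higher, and over all genes 47.7% were positive with all mice.

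Cell cycle, chromatin and interferon genes had a few higher members each. Of 31 cell cycle genes tested, 5 were higher and 0 lower at an unadjusted p under 0.05 (median change 0.13), and 4 were higher without mice 14 and 15, against 6.03% and 3.17% of all genes. Cdk4, the G1 kinase, had 11.01, 11.34, 11.65, 11.29, 10.88 and 11.10 in T3-exposed mice, against 10.22, 11.02, 10.79, 10.39, 10.17 and 10.18 in untreated mice, a change of 0.75 (standard error 0.20, adjusted p = 0.322, limma), with 34 of 36 pairs higher in the T3-exposed mouse. The replication clamp gene Pcna had one of 0.47. Of 32 genes of DNA methylation and chromatin, 5 were higher and 1 lower, with Gadd45a, linked to active demethylation, at 0.69 and the Polycomb subunit gene Eed at 0.38, and 2 were higher and 1 lower without mice 14 and 15. Of 30 interferon response genes 6 were higher and 0 lower (median change 0.21), with Ifi27 at 0.86 and the chemokine gene Cxcl9 at 0.74, and 1 was higher without mice 14 and 15.

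Clock genes differed widely between the untreated mice. Dbp, a clock output transcription factor, had 11.73, 12.35, 14.47, 11.65, 11.56 and 12.39 in T3-exposed mice, against 9.74, 9.71, 8.25, 11.76, 11.83 and 8.67 in untreated mice. Its change of 2.36 (standard error 0.90, adjusted p = 0.399, limma) had a wide error. Untreated mice 56 and 57 were at the T3-exposed level and the other 4 untreated mice at 9.74 or below. Nr1d1, the repressor REV-ERBα, had 12.67 to 13.71 in T3-exposed mice, against 12.77 and 12.83 in untreated mice 56 and 57 and 10.70 to 11.79 in the other untreated mice (1.11, standard error 0.39). Arntl, the activator BMAL1, which peaks when Nr1d1 is low, was chosen after its values were seen and had a change of -0.89 (standard error 0.55), with 8.18 in mouse 15 and 9.52 to 10.17 in the other T3-exposed mice, against 9.85 to 11.3 in untreated mice. Of 19 clock genes 2 were higher and 0 lower at an unadjusted p under 0.05, and 1 was higher without mice 14 and 15. Over all genes, 6.03% were higher with all mice and 3.17% without mice 14 and 15. The median change of the list, 0.07, was -0.05 among label numbers above 30. The time of day at which hearts were taken is not given in the sources used here, and its part in these values was not tested.

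**Figure D4:**
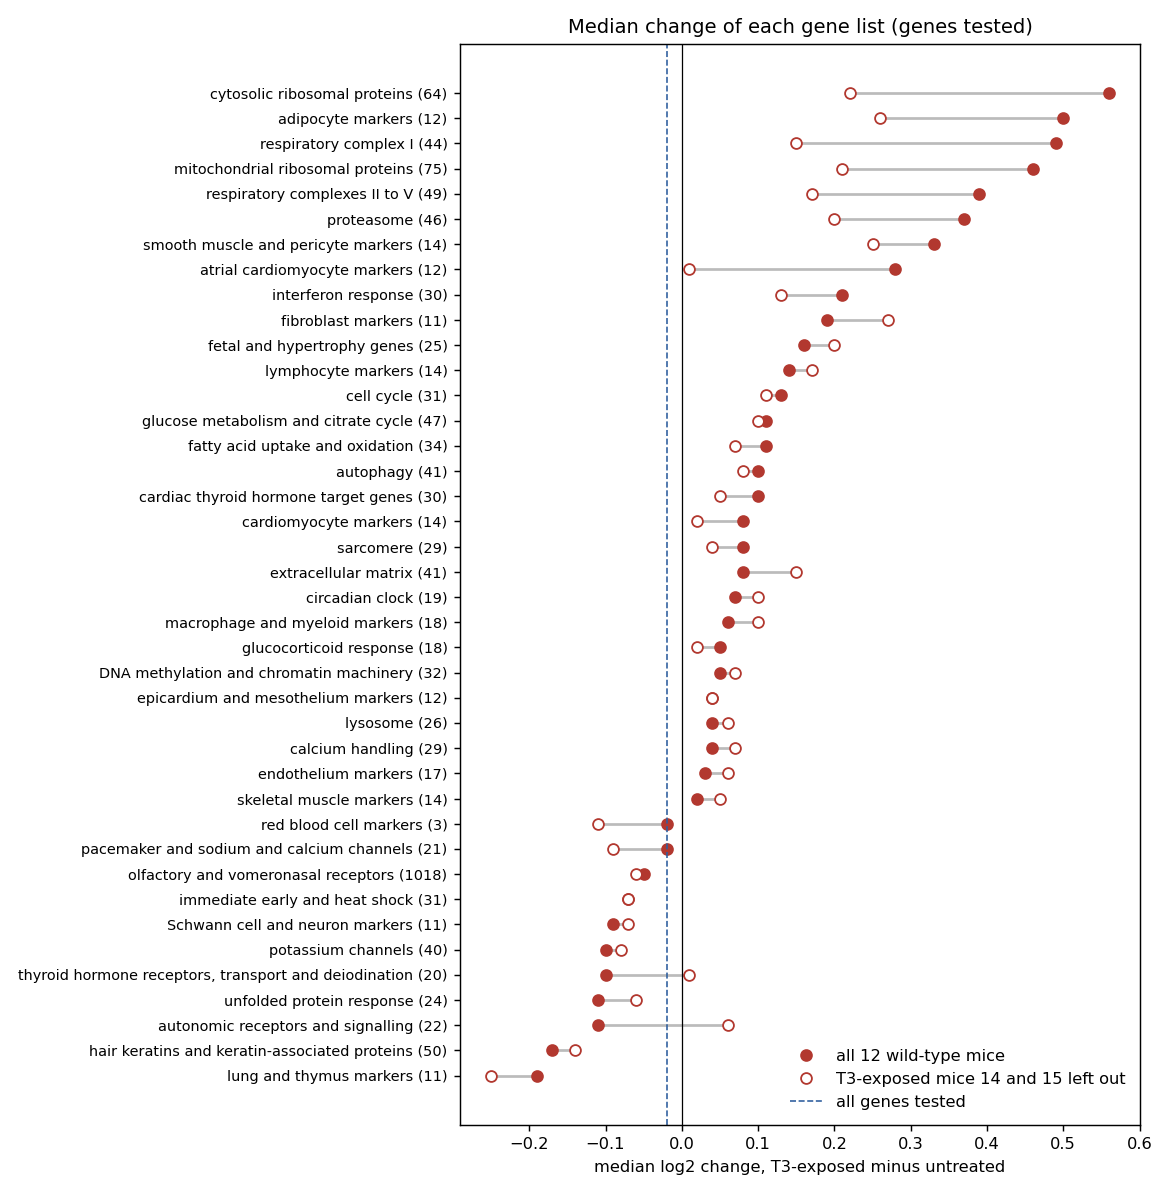
Median log2 change, T3-exposed minus untreated, of the 40 gene lists, with the number of genes tested in brackets, filled for all 12 wild-type mice and open without T3-exposed mice 14 and 15. The dashed line is the median of all genes tested at -0.02. Among the lists that fall most toward 0 without the 2 mice are cytosolic ribosomal proteins, complex I and atrial markers.

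Markers of atrium and fat varied between mice of both groups. The mean of 12 atrial cardiomyocyte markers was 13.49, 13.84, 13.83, 11.00, 13.29 and 12.27 in T3-exposed mice, against 11.18 to 13.29 in untreated mice. Their median change of 0.28 was 0.01 without mice 14 and 15 and -0.42 among label numbers above 30. T3-exposed mouse 46 and untreated mouse 2 were the lowest, and Bmp10, a gene of the right atrium chosen after its values were seen, was at 3.45 in mouse 46 and at 11.64 or more in all other wild-type mice. Sln, sarcolipin, the atrial inhibitor of the calcium pump, had a change of 1.34 (standard error 0.60), which was -0.36 among label numbers above 30 and 0.51 without mice 14 and 15, and Myl1, a light chain of fast skeletal muscle, one of 1.08, which was 0.60 without these mice. The mean of 12 adipocyte markers was 6.86 to 9.68 in T3-exposed and 6.84 to 9.19 in untreated mice, with 11 positive and 0 past an unadjusted p of 0.05. Their median change was 0.50, and 0.26 without mice 14 and 15, but among label numbers above 30 it turned to -0.21, with 2 of 12 positive. Of 18 macrophage and myeloid markers 2 were higher and 1 lower, with the lysozyme gene Lyz2 at 0.71 and Cx3cr1 at -0.55, against 6.03% and 4.95% of all genes. Of these 0 were higher or lower without mice 14 and 15, with Lyz2 at 0.39 and Cx3cr1 at -0.30. At that threshold 1 of 17 endothelial markers was higher, and 0 of 14 lymphocyte, 0 of 3 red blood cell and 0 of 11 lung and thymus markers were higher or lower. Without mice 14 and 15, 0 of these were higher, and 1 lymphocyte and 1 lung and thymus marker were lower. The part of differing atrial or fat content in the values above was not tested.

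In TRα1+m hearts, which share no array with the groups of the wild-type comparison, the changes after maternal T3 had mostly the same sign for genes with higher or lower values in wild-type hearts. At an unadjusted p under 0.05, 789 genes were higher (3.98%) and 856 lower (4.32%) there, and 17 passed (0.0859%). Of the 1194 genes that were higher in wild-type hearts, 1003 (84.0%) had a positive change in TRα1+m hearts and 164 (13.7%) were also higher at an unadjusted p under 0.05, against 49.3% and 3.98% of all genes. Of the 980 that were lower, 720 (73.5%) had a negative change and 87 (8.88%) were lower, against 50.7% and 4.32% of all genes. The counts at an unadjusted p under 0.05 are not independent between genotypes, because each gene's spread was estimated over all 24 arrays. How far this raised the shared counts was not tested. Wild-type and TRα1+m mice may also be littermates, as litters and dams are not given. The part of shared dams in the agreement was not tested. Over all 24 arrays the first principal component set 5 mice apart, T3-exposed wild-type mice 14 and 15, T3-exposed TRα1+m mice 16 and 17 and untreated TRα1+m mouse 4. All 5 had label numbers up to 17, and their part in the 580 genes that differed between the label ranges was not tested. Without these 5 mice in both comparisons, 978 genes were higher (4.94%) and 882 lower (4.45%) in wild-type hearts, and 663 (67.8%) of the first and 583 (66.1%) of the second had the same sign in TRα1+m hearts. Over all genes 50.4% were positive and 49.6% negative without these mice.

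Atg2a had 7.97, 8.05, 7.22, 7.77, 7.02 and 7.63 in T3-exposed TRα1+m mice, against 7.34, 7.04, 7.01, 6.49, 6.82 and 6.41 in untreated TRα1+m mice, a change of 0.76 (standard error 0.19, adjusted p = 0.152, limma). The difference between the genotypes in this change, wild-type minus TRα1+m, was 0.51 (standard error 0.27, unadjusted p = 0.0727). Of the 12 genes with the smallest p on the higher side 8 had a positive change in TRα1+m hearts, and of those on the lower side 6 had a negative one. Besides Atg2a, Srsf9 (0.39), Prorp (0.55), Abhd16a (0.41), Dppa2 (-0.42) and Fer1l4 (-0.68) were at an unadjusted p under 0.05 there. Egfl6 had a change of 0.12, and its interaction was -1.01 (standard error 0.25, adjusted p = 0.848, limma). The interaction was past an unadjusted p of 0.05 for 15 of these 24 genes, against 830 of all genes (4.19%), but the genes were chosen by their wild-type change, which is part of it. Over all genes 0 interactions passed in limma, and the smallest adjusted p was 0.127.

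**Figure D5:**
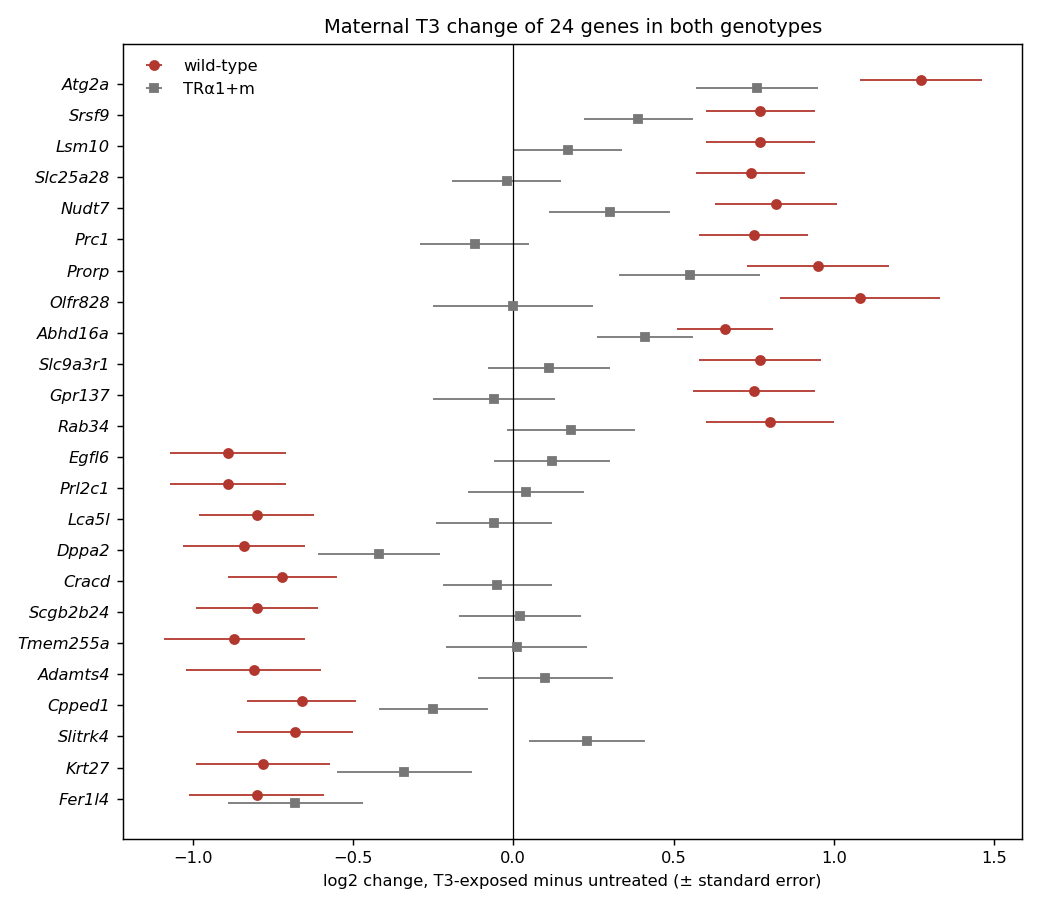
Log2 change after maternal T3 with its standard error for the 24 genes with the smallest p in wild-type hearts, in wild-type (circles) and TRα1+m hearts (squares). The genes were chosen by the wild-type values, so the larger wild-type changes are given by that choice, and Atg2a, Srsf9, Prorp, Abhd16a, Dppa2 and Fer1l4 are those at an unadjusted p under 0.05 in TRα1+m hearts as well.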

How the data were processed

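RNA of 24 whole hearts was measured on Clariom S arrays, 1 per mouse. Per the labels and methods, the authors used RMA (Transcriptome Analysis Console 4.0.1) to make the deposited log2 values, with background correction, quantile normalisation across arrays and 1 summary per probe set. Values ran from 1.78 to 19.93, and quantile normalisation ties a gene's value to all others of its array. Of 28846 probe sets, 6640 controls were left out. All 19572 probe sets with a symbol were matched by gene number to RefSeq (GRCm38.p6), 2634 had no symbol, and 67 second probe sets of 55 symbols were dropped.

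Groups came from the sample titles. Change was T3-exposed minus untreated, fitted with limma 3.58.1 in R 4.3.3 (lmFit and eBayes, 1 mean per group over 24 arrays, 20 residual and 6.8 prior degrees of freedom). The interaction was the wild-type minus the TRα1+m change. Arrays give no depth, and their number limits the precision. Group differences in Atg2a and in distances were also tested by exact permutation. No 2 arrays were identical.

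The 40 gene lists, the naming rule and the comparison itself were chosen with earlier results of these data known. Named were genes that passed, the 12 with the smallest p in each direction with a regular symbol, up to 2 members of each list at an unadjusted p under 0.05, and 15 thyroid hormone and heart genes in every case, 94 in all. Lists are described by counts and medians, with no set test. Alternatives were the filter, arrays in the fit, eBayes settings, array weights, label numbers, centring, a fold minimum and leaving out each mouse. The fits were tested on simulated data.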

Additional observations from a re-analysis of the deposited data

Results flagged for a closer look

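In 9 of 188 groups of 6 wild-type mice, examined for the 94 named genes, 1 mouse lay farther from the rest than the critical value of Dixon's test for the gap over the range, which chance alone passes in about 1 in 20 groups. T3-exposed mouse 15 gave 4 of them. It was lowest for Lca5l at 3.82, with the other T3-exposed mice at 4.92 to 5.27, and highest for Cxcl9 at 10.07 (others 7.82 to 8.57), Nr1d1 at 13.71 (others 12.67 to 12.94) and Dbp at 14.47 (others 11.56 to 12.39). T3-exposed mouse 14 was lowest for Gnaq at 9.64 (others 10.33 to 10.66) and for the myelin gene Mbp at 5.06 (others 5.57 to 5.84). Pln was lowest at 19.17 in T3-exposed mouse 47 (others 19.41 to 19.44) and at 19.31 in untreated mouse 58 (others 19.39 to 19.42). Kcng1 was lowest at 5.34 in untreated mouse 39 (others 5.85 to 6.11).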

How the results depend on the processing

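No paired analysis was possible because the groups compared share no label numbers. With 1 gene higher and 0 lower after maternal T3 (limma, adjusted p under 0.05), the count of higher genes was 2 with a filter at 5 and 2 with trend and robust settings, and 0 among label numbers above 30. Leaving out T3-exposed mice 14 and 15, or the 5 mice set apart, gave 0, and both were chosen after seeing the data. Leaving out 1 mouse gave 0 to 2 higher and 0 to 1 lower genes, the 0 without untreated mouse 2. The change of Atg2a was 1.06 among label numbers above 30 (limma, adjusted p = 0.399), 1.13 without mice 14 and 15 (adjusted p = 0.175) and 1.13 without the 5 mice (adjusted p = 0.0641), and 1.20 to 1.35 with 1 mouse left out (adjusted p from 0.00661 to 0.0517). At an unadjusted p under 0.05, 627 genes were higher without mice 14 and 15, and 392 higher and 197 lower genes had a change of at least 1.5-fold. The share of squared distances among label numbers above 30 was 16.4% (exact permutation p = 0.0536). Of single genes, Sln had a change of -0.36 among label numbers above 30, and Myh7 -0.01 without mice 14 and 15 and -0.01 without the 5 mice. Ryr2 had 0.02 in each of these 3 settings. Atp2a2 had 0.00 in the same settings and with the label range as a term. Pln had -0.03 to 0.03 with 1 mouse left out, positive without T3-exposed mouse 47. Causes were not tested. Values at the top of the scale have little room to be higher, and those near 4 are close to the background of the array. Some list medians turned sign: without T3-exposed mice 14 and 15 that of the thyroid hormone receptor list was 0.01 against -0.10 with all mice and that of the autonomic list 0.06 against -0.11, and among label numbers above 30 that of the adipocyte markers was -0.21 against 0.50 and that of the atrial markers -0.42 against 0.28.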

Other observations

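Skeletal muscle and stress genes add little to the picture. Over all genes, 6.03% were higher and 4.95% lower at an unadjusted p under 0.05, and 3.17% and 3.72% without T3-exposed mice 14 and 15. Of 14 skeletal muscle markers 2 were higher and 1 lower at an unadjusted p under 0.05 (median change 0.02), against 1 higher and 1 lower without T3-exposed mice 14 and 15. Of 24 genes of the unfolded protein response 0 were higher and 1 lower (median -0.11), and also 0 and 1 without these mice. With all mice the lower one was Syvn1, a ubiquitin ligase of the endoplasmic reticulum, with a change of -0.55. Without mice 14 and 15 Syvn1 was at -0.19 and an unadjusted p above 0.05, and the lower one was another gene. Of 31 immediate early and heat shock genes 1 was higher and 1 lower, the mitochondrial chaperonin gene Hspe1 at 0.60 and Fosb at -0.47, and without mice 14 and 15 it was 0 and 0, with Hspe1 at 0.21. Of 18 glucocorticoid response genes 0 were higher and 1 was lower, Ddit4, an inhibitor of mTORC1 signalling, at -1.14 (7.21 to 9.56 in T3-exposed and 8.94 to 11.33 in untreated mice), and 0 were higher or lower without mice 14 and 15. The median change of this list, 0.05, was -0.13 among label numbers above 30.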
